A study of Mus musculus with 12 samples.

Results

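The collagen chains are the 44 protein-coding genes, of 54532 genes in the expression table, whose symbols have the form of a collagen alpha chain (Col1a1, Col4a2 and so on). The rule that picks them reads the gene's name and biotype and no measured value. They were sorted into 11 fibrillar chains, 6 type IV chains, 2 multiplexins, 3 network-forming chains, 6 type VI chains, 9 FACIT chains and 7 anchoring fibril, transmembrane and other chains. RNA was sequenced from the gastrocnemius, a calf muscle of the hindlimb, of female ICR SCID mice, an immunodeficient strain that lacks functional T and B lymphocytes, in 3 groups of 4 libraries each. The NTV group was tumour-free and given vehicle. In the TV group, also given vehicle, HT1080 cells (a line from a human fibrosarcoma) had been grown as subcutaneous tumours. The TL group bore HT1080 tumours too, and was given the RET kinase inhibitor selpercatinib by oral gavage, 30 mg/kg daily over 19 days. All 3 groups share the strain, the sex and the immunodeficiency. There was no tumour-free group on selpercatinib, so an effect of the drug in muscle without a tumour could not be separated. The age of the mice was not given in the sources used here.

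Collagens are trimeric proteins of the extracellular matrix. Each chain winds with 2 others into a triple helix, which requires glycine at the first place of every Gly-X-Y triplet, since no larger side chain fits inside the helix. Fibrillar collagens, mainly types I and III in muscle, form the load-bearing fibrils of epimysium, perimysium and tendon. Type IV collagen forms the sheet of the basement membrane around each myofibre and capillary. Multiplexins anchor that membrane, type VI collagen forms the beaded filaments that join it to the interstitial matrix, and FACIT collagens sit on fibril surfaces. In muscle most collagen is made by fibroblasts, fibro-adipogenic progenitors and tenocytes, and much type IV collagen also by endothelial cells and myofibres.

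The coding sequences show the repeat that defines the family and how it differs between classes. The stretches of 72 bases below come from the GENCODE vM21 transcripts of the mouse genome build GRCm38, read 5′ to 3′ on the coding strand from the start of each gene's longest unbroken run of glycine triplets, with each glycine codon (GGN) of the frame in capitals. They are shown for the chains that lead each of the main classes in level.
Col1a1: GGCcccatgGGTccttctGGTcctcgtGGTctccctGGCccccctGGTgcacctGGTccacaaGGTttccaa
Col1a2: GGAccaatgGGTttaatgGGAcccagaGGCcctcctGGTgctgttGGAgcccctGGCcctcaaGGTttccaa
Col3a1: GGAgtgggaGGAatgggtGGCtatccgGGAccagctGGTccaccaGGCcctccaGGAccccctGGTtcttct
Col4a1: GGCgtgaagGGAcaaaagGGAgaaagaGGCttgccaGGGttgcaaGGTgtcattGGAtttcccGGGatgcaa
Col6a1: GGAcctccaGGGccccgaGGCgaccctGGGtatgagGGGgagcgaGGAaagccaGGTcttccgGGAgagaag
Col15a1: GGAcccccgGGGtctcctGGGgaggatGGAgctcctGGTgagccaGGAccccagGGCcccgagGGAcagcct
In the fibrillar chains the run goes on for 338 triplets in Col1a1, 339 in Col1a2 and 344 in Col3a1. Over the 11 fibrillar chains the longest run had a median of 338 triplets, with a range from 216 in Col24a1 to 344. It was 39 to 66 triplets in the type IV chains, 37 to 87 in the type VI chains, 32 to 113 in the FACIT chains and 30 in both multiplexins. The following stretch of Col4a1, also of 72 bases, runs across the end of its longest run, where the capitals stop.
Col4a1: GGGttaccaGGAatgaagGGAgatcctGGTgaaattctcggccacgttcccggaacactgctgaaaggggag
A GGN codon outside the triplet frame is left in lower case.

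The libraries held 14939830 to 23580603 reads assigned to genes. Values are FPKM, read fragments per unit of gene length and of library size, here scaled between libraries by median-of-ratios size factors. Of the 44 chains, 22 reached a mean of 0.5 FPKM over the 12 libraries and were tested together with all 12754 genes that did. Collagen chains took 0.158% ± 0.043 (SD, n = 4) of the reads in NTV muscle, 0.0424% ± 0.0102 (n = 4) in TV and 0.0380% ± 0.0037 (n = 4) in TL. The range was 0.110% to 0.209% in NTV, above the highest value of the tumour-bearing groups, 0.0525%. Since these are bulk samples, fewer cells of a type and less RNA per cell cannot be told apart. The marker genes of myofibres, the labelled tissue, were abundant in every library, with a summed level of at least 30851 FPKM.

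Muscle of tumour-bearing mice held far less collagen RNA than muscle of tumour-free mice. Of the 22 tested chains, 16 were lower in TV than in NTV (adjusted p under 0.05), against 11.5% of all tested genes, and 0 were higher, against 13.8% of all tested genes. By limma at an unadjusted p under 0.05, 1 chain, Col7a1, was higher, and limma-voom on the recovered reads called 0 higher. The same number, 16 chains, had every TV library below every NTV library, against 12.7% of tested genes. The median log2 change over the 22 chains was -1.16, and over all tested genes 0.02. All 3 type VI chains, both type IV chains, both multiplexins and the network chain that were tested fell, with 6 of 8 fibrillar and 2 of 4 FACIT chains, while neither chain of the last class was called. The fall was at least 2-fold on the fitted scale in 13 chains, against 2.12% of all tested genes.

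The type I chains form the main fibrils of tendon and muscle connective tissue. Col1a1 (ENSMUSG00000001506, chr11:94936224-94953042, plus strand) encodes the alpha 1 chain, which supplies 2 of the 3 strands of the molecule. Its level was 17.7, 16.1, 30.5 and 39.1 FPKM in NTV replicates 2, 3, 5 and 6, then 2.11, 0.691, 2.67 and 3.16 in TV replicates 3, 4, 6 and 8, and 2.56, 0.796, 2.67 and 1.59 in TL replicates 1, 4, 5 and 7. The lowest NTV library was thus above the highest library of either tumour-bearing group, and replicate 4 was the lowest in both TV and TL. Mean levels were 25.8 ± 10.9 FPKM in NTV and 2.16 ± 1.07 in TV (SD, n = 4 each), a 12-fold difference. The log2 change was -3.33 ± 0.40 (SE, adjusted p = 0.000898). Here and below, log2 changes are of FPKM + 0.5, which understates the change of low genes, and adjusted p-values are from limma with Benjamini-Hochberg adjustment.

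Col1a2 (ENSMUSG00000029661, chr6:4504814-4541544, plus strand) encodes the partner chain of type I. It was at 11.6, 9.36, 19.8 and 30.6 FPKM in NTV, at 1.87, 0.874, 1.95 and 2.43 in TV and at 2.38, 0.845, 2.35 and 1.95 in TL, in the same replicate order. Its log2 change in TV was -2.91 ± 0.37 (adjusted p = 0.00107). Col3a1 (ENSMUSG00000026043, chr1:45311538-45349706, plus strand) encodes type III collagen, which copolymerises with type I in thin, extensible fibrils. Its NTV libraries held 19.6, 12.7, 29.9 and 24.9 FPKM, its TV libraries 2.91, 0.718, 2.89 and 3.32, and its TL libraries 2.51, 0.701, 2.36 and 1.80. Its log2 change in TV was -2.97 ± 0.40 (adjusted p = 0.00123). In neither gene did an NTV library reach down to the tumour-bearing ones.

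**Figure D1:**
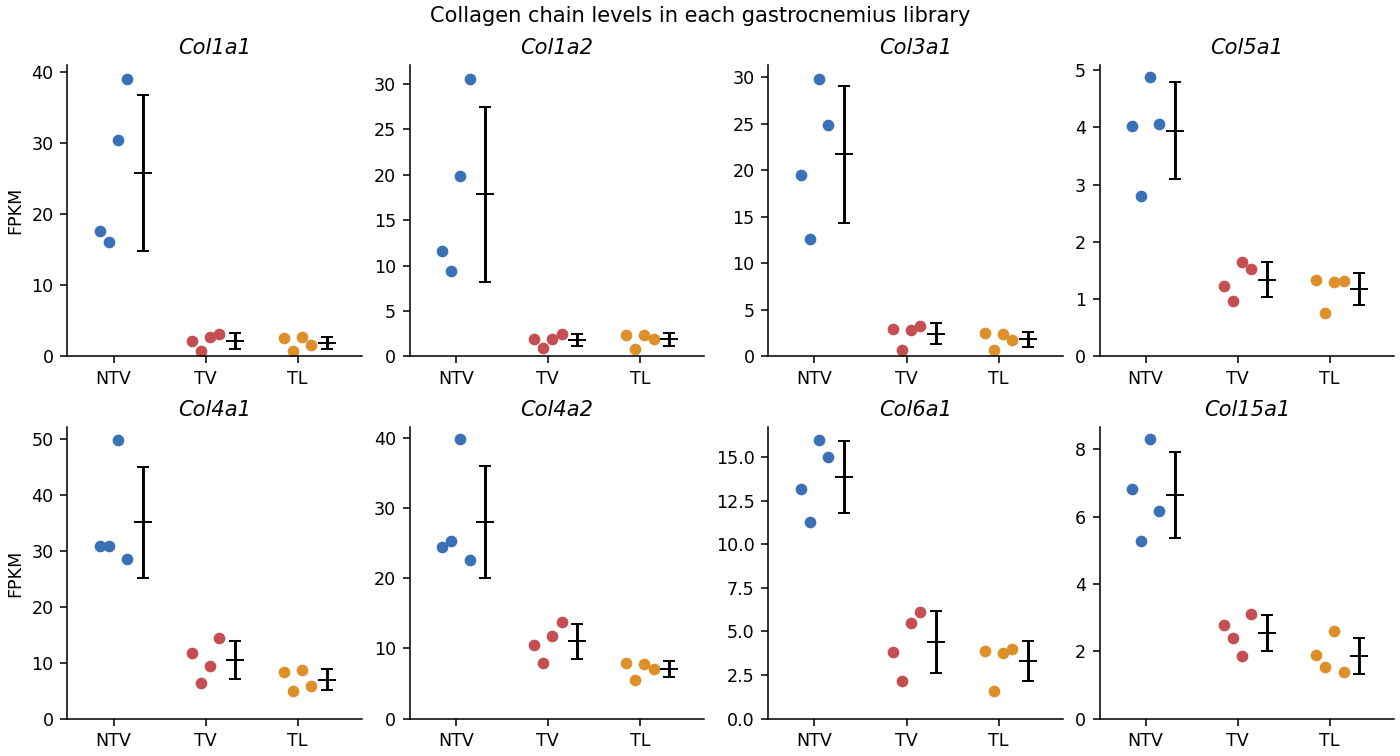
FPKM (linear axis from 0) of 8 collagen chains in each library, with 1 point per library and the mean with its SD beside the points of each group (n = 4). In all 8 panels the NTV points lie above every TV and TL point, and the point of replicate 4, the second from the left in TV and TL, is the lowest of its group in every panel but that of Col15a1.

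Type V collagen is a minor fibrillar collagen that nucleates type I fibrils and limits their diameter. Col5a1 was at 4.03, 2.81, 4.88 and 4.06 FPKM in NTV, 1.23, 0.969, 1.65 and 1.52 in TV, and 1.34, 0.750, 1.30 and 1.31 in TL. Col5a2 was at 3.16, 2.90, 4.56 and 3.27 FPKM in NTV, 1.5, 0.992, 1.16 and 1.21 in TV, and 1.26, 0.485, 1.36 and 1.08 in TL. In TV their log2 changes were -1.26 ± 0.18 (adjusted p = 0.00136) and -1.20 ± 0.20 (adjusted p = 0.00227). The ratio of Col5a1 to Col1a1 FPKM was 0.104 to 0.228 in NTV libraries, 0.480 to 1.40 in TV and 0.489 to 0.943 in TL, so the nucleating chain stood higher relative to the type I chain in every tumour-bearing library.

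The other tested fibrillar chains were Col5a3, Col24a1 and Col11a2. Col5a3, the type V chain that occurs in a subset of type V molecules, was at 7.35, 4.99, 5.35 and 5.36 FPKM in NTV, 2.83, 2.81, 4.61 and 4.6 in TV, and 1.63, 4.83, 2.22 and 3.2 in TL. Its TV values all lay below NTV, yet its log2 change of -0.59 ± 0.26 was not called (adjusted p = 0.115). Col24a1, a minor fibrillar chain with the shortest longest run in its class, had 0.784, 0.915, 1.68 and 2.34 FPKM in NTV, 0.232, 0.301, 0.321 and 0.577 in TV, and 0.412, 0.286, 1.04 and 0.418 in TL. It fell in TV by 1.11 ± 0.28 on the log2 scale (adjusted p = 0.0138), and its mean FPKM was 4-fold lower, against 2.94-fold for Col5a1. The 0.5 added before taking logs weighs more at its low level. Col24a1 passed the filter, with a mean of 0.776 FPKM over the 12 libraries, only through NTV. Its group means were 1.43 in NTV, 0.358 in TV and 0.540 in TL. It is counted among the 16 chains lower in TV. In the fit without the filter it was also called (limma adjusted p = 0.0328). Col11a2, a type XI chain known from cartilage fibrils, averaged 2.80 ± 0.49 FPKM in NTV, 1.98 ± 1.43 in TV and 2.31 ± 0.98 in TL. It was not called (log2 change in TV -0.58 ± 0.35, adjusted p = 0.25).

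In the basement membrane, Col4a1 (ENSMUSG00000031502, chr8:11198423-11312826, minus strand) and Col4a2 (ENSMUSG00000031503, chr8:11312805-11449287, plus strand) encode the chains of the common type IV molecule, which holds 2 alpha 1 chains and 1 alpha 2 chain. Col4a1 was at 30.9, 31.0, 49.9 and 28.7 FPKM in NTV, 11.7, 6.33, 9.49 and 14.4 in TV, and 8.43, 4.97, 8.66 and 5.77 in TL. Col4a2 was at 24.5, 25.3, 39.8 and 22.5 FPKM in NTV, 10.5, 7.90, 11.7 and 13.8 in TV, and 7.96, 5.44, 7.74 and 7.01 in TL. NTV replicate 5 was the highest for both, and the NTV libraries were above all others without it. In TV the log2 change was -1.72 ± 0.26 for Col4a1 (adjusted p = 0.00156) and -1.30 ± 0.20 for Col4a2 (adjusted p = 0.00172). The 2 genes lie head to head, and the table's gene spans overlap by 22 bases on opposite strands. Reads from those bases cannot be told apart without strand, which the sources used here do not give for the counting.

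The multiplexins attach basement membranes to the matrix around them, and the end of Col18a1 yields the fragment endostatin. Col15a1 was at 6.82, 5.29, 8.31 and 6.17 FPKM in NTV, 2.78, 2.39, 1.87 and 3.12 in TV, and 1.90, 1.55, 2.62 and 1.40 in TL. Its log2 change in TV was -1.23 ± 0.18 (adjusted p = 0.00153). Col18a1 was at 1.93, 1.64, 2.71 and 1.58 FPKM in NTV, 1.35, 0.757, 0.681 and 1.55 in TV, and 0.624, 0.564, 1.04 and 0.614 in TL. Its highest TV library was close to its lowest NTV library, and its log2 change in TV of -0.66 ± 0.21 (adjusted p = 0.0398) lost its call under 14 other settings (adjusted p 0.0508 to 0.368), among them leaving out any 1 of the NTV libraries.

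Type VI collagen is a trimer of 3 different chains, and mutations in any of them can cause muscular dystrophy. Col6a1 was at 13.1, 11.3, 16 and 15 FPKM in NTV, 3.82, 2.17, 5.47 and 6.10 in TV, and 3.89, 1.59, 3.78 and 3.98 in TL. Col6a2 was at 6.68, 4.45, 8.21 and 8.31 FPKM in NTV, 1.54, 0.753, 1.91 and 2.65 in TV, and 1.42, 0.827, 1.57 and 1.76 in TL. Col6a3 was at 3.00, 2.47, 4.54 and 3.92 FPKM in NTV, 0.823, 0.412, 1.22 and 1.45 in TV, and 1.09, 0.556, 0.926 and 1.21 in TL. For all 3 chains every NTV library was above every other library, and replicate 4 was lowest in both tumour-bearing groups. Their log2 changes in TV were -1.62 ± 0.30, -1.78 ± 0.28 and -1.46 ± 0.25 (adjusted p = 0.00368, 0.00182 and 0.00256).

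Among the rest, Col8a1, a short network-forming chain of vessel walls, was at 1.64, 1.24, 2.50 and 1.57 FPKM in NTV, 0.938, 0.507, 0.481 and 0.497 in TV, and 0.684, 0.396, 0.804 and 0.655 in TL. It fell in TV by 1.01 ± 0.19 on the log2 scale (adjusted p = 0.00435). Col22a1, the FACIT chain of the myotendinous junction, was at 2.04, 3.39, 3.16 and 4.41 FPKM in NTV, 0.901, 1.25, 2.43 and 1.27 in TV, and 1.57, 0.630, 1.90 and 1.69 in TL. Col16a1, a FACIT chain of several connective tissues, was at 0.990, 0.795, 1.61 and 1.35 FPKM in NTV, 0.632, 0.456, 0.248 and 0.769 in TV, and 0.770, 0.553, 0.434 and 0.658 in TL. For Col22a1, TV replicate 6 lay above the lowest NTV library, whereas the Col16a1 groups did not overlap. Their log2 changes in TV were -0.95 ± 0.28 (adjusted p = 0.0305) and -0.72 ± 0.20 (adjusted p = 0.0221). Single libraries decided both calls: leaving out NTV replicate 3, 5 or 6 or TV replicate 3, 4 or 8 ended that of Col22a1, and leaving out NTV replicate 5 or 6 or TV replicate 4 ended that of Col16a1 (adjusted p up to 0.248 and 0.338 over all settings that ended a call).

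The remaining tested chains were not called lower in TV, and of these Col14a1 alone had a negative log2 change. Col7a1, which builds the anchoring fibrils of epithelia, had 1.94, 2.10, 1.91 and 2.39 FPKM in NTV and 2.43, 3.35, 3.55 and 4.32 in TV, with no overlap. Its log2 change of 0.58 ± 0.23 was not called (adjusted p = 0.0821), but it was called higher under 4 other settings, among them without TL replicate 4 (adjusted p 0.0146 to 0.0474 over the 4). Col20a1, a little-studied FACIT chain, averaged 1.34 ± 0.36 FPKM in NTV, 1.95 ± 0.26 in TV and 1.96 ± 0.997 in TL, with a log2 change in TV of 0.43 ± 0.24 (adjusted p = 0.198) and no overlap between TV and NTV. Col23a1, a transmembrane collagen, averaged 0.744 ± 0.322 FPKM in NTV, 1.29 ± 0.65 in TV and 1.29 ± 0.57 in TL. Its log2 change in TV was 0.49 ± 0.28 (adjusted p = 0.216). Col14a1, a FACIT chain of perimysium and tendon, averaged 1.61 ± 0.72, 0.876 ± 0.259 and 0.806 ± 0.396 FPKM, and its log2 change in TV was -0.57 ± 0.28 (adjusted p = 0.155).

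**Figure D2:**
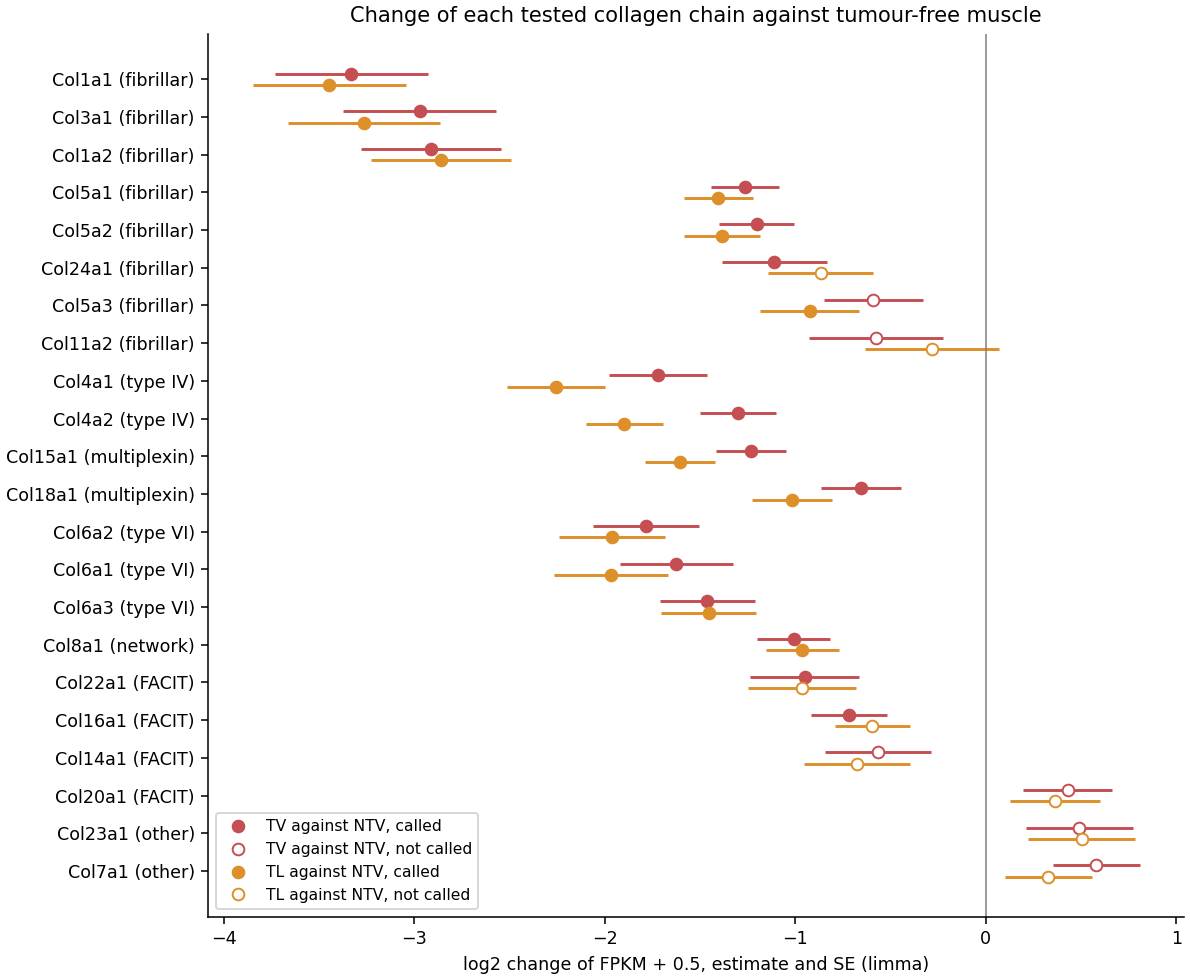
Log2 change of FPKM + 0.5 against NTV (horizontal axis, estimate with its SE) for the 22 tested chains, grouped by class, in TV (red) and TL (orange), with filled points for called changes. Both comparisons use the same 4 NTV libraries. Col1a1, Col3a1 and Col1a2 lie near -3, the type IV and type VI chains between -1 and -2.3, and Col20a1, Col23a1 and Col7a1 to the right of 0.

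The second comparison asked whether selpercatinib changed these levels in tumour-bearing mice. No collagen chain passed the test: 0 of 22 were higher in TL than in TV, against 0.235% of tested genes, and 0 were lower, against 0.282% of tested genes, by limma. At an unadjusted p under 0.05 there was 1 chain, Col4a2, and limma-voom on the recovered reads also called 0 in either direction. The median log2 difference over the 22 chains was -0.13, and the TL and TV values overlapped in every one of these tested chains. The share of all tested genes without overlap was not computed for this comparison. Rescaling the libraries to equal totals moved the median of all tested genes in this comparison to 0.11, and 16 chains changed sign under at least 1 setting, so the direction of small differences is not firm.

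Among the tested chains, the largest differences between TL and TV on the log2(FPKM + 0.5) scale were in the basement membrane chains. On the linear scale the ratio of mean FPKM was of like size for Col24a1, which was 1.51-fold higher in TL, where Col4a1 was 1.5-fold lower. Col4a2 averaged 11 ± 2.5 FPKM in TV and 7.04 ± 1.14 in TL (SD, n = 4 each), a log2 difference of -0.60 ± 0.20 with a 95% interval from -1.03 to -0.16 before adjustment over genes (adjusted p = 0.188). Its lowest TV library, 7.90, lay just below its highest TL library, 7.96. Col4a1 averaged 10.5 ± 3.4 and 6.96 ± 1.86 FPKM, a log2 difference of -0.53 ± 0.26 (interval -1.10 to 0.03, adjusted p = 0.334). Col15a1 and Col18a1 differed by -0.37 ± 0.18 (interval -0.77 to 0.03) and -0.36 ± 0.21 (interval -0.82 to 0.10).

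For the fibrillar chains the intervals bound what these libraries could show. The log2 difference between TL and TV was -0.12 ± 0.40 for Col1a1 (interval -0.99 to 0.76), 0.05 ± 0.37 for Col1a2 (interval -0.75 to 0.86) and -0.29 ± 0.40 for Col3a1 (interval -1.16 to 0.58). A return of Col1a1 to the NTV level would have been 3.33 on this scale, which lies outside the interval. Among the type VI chains the differences were -0.34 ± 0.30 for Col6a1, -0.18 ± 0.28 for Col6a2 and 0.01 ± 0.25 for Col6a3. No interval in the set went above 1.06, the upper bound of Col11a2.

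**Figure D3:**
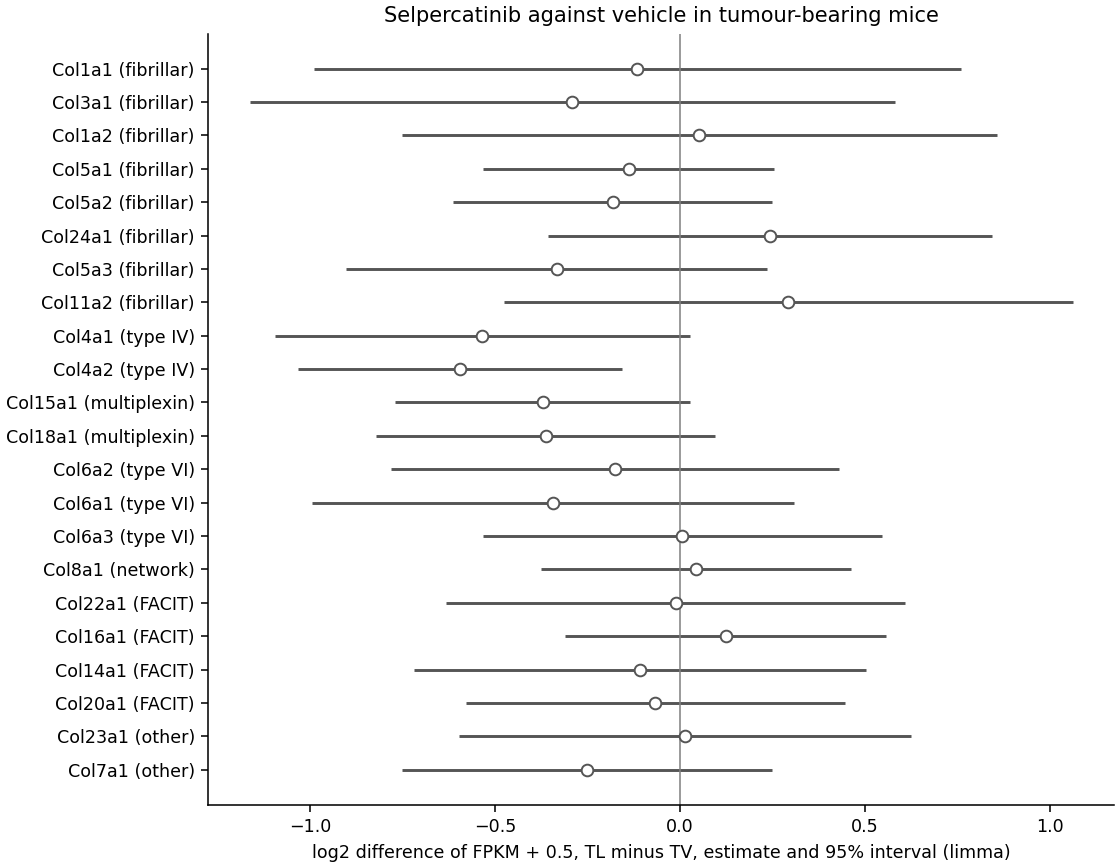
Log2 difference of FPKM + 0.5 between TL and TV (horizontal axis, TL minus TV) with its 95% interval for the 22 tested chains, grouped by class (n = 4 libraries per group). The interval of Col4a2 lies below 0, from -1.03 to -0.16, and all other intervals include 0.

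Against tumour-free muscle, the selpercatinib group showed lower collagen levels as well. In TL 14 of 22 chains were lower than in NTV by limma, against 4.62% of tested genes, and 0 were higher, against 4.19%. The count of higher chains was also 0 by limma-voom and at an unadjusted p under 0.05. Groups did not overlap, with TL below NTV, in 16 chains, against 10.1% of tested genes. The median log2 change over the chains was -1.20. Because this comparison and the first share the NTV libraries, their calls are not independent. Called lower in both were 13 chains, in TV alone Col22a1, Col24a1 and Col16a1, and in TL alone Col5a3. In TL the log2 changes of Col22a1, Col24a1 and Col16a1 were -0.96, -0.87 and -0.59 (limma adjusted p = 0.0559, 0.0699 and 0.0809). Col22a1 was called lower in TL under 4 other settings and Col24a1 under 2. Col5a3, at a log2 change of -0.92 ± 0.26 (adjusted p = 0.0481), lost its call in TL under 17 other settings (adjusted p up to 0.28). These included leaving out any NTV library, TV replicate 4 or 6, or TL replicate 1, 5 or 7. The tests that set these chains apart were not tests of a difference between TV and TL, which none of them passed.

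The values for TL against NTV, with the NTV levels given above, were a log2 change of -3.45 for Col1a1, -2.86 for Col1a2 and -3.26 for Col3a1 (adjusted p = 0.00191, 0.00236 and 0.00219). Col4a1 was at -2.25 and Col4a2 at -1.90 (adjusted p = 0.00191 for both). Col15a1, Col6a1 and Col6a2 were at -1.61, -1.97 and -1.96.

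The makeup of the collagen RNA differed along with its amount. Fibrillar chains made up 42.1% ± 7.0 of the summed collagen FPKM in NTV, 24.9% ± 3.9 in TV and 28.8% ± 2.9 in TL (SD, n = 4), and their lowest share in NTV, 35.7%, was above the highest in TV, 30.0%, and in TL, 32%. Type IV chains held 33.3%, 36.8% and 30.1%, and type VI chains 12.7%, 11.8% and 12%. FACIT chains held 4.34% of the sum in NTV, 9.58% in TV and 11.8% in TL, while their summed level was 8.44 FPKM in NTV, 5.58 in TV and 5.60 in TL. These shares are descriptions, and a share can go up only because another went down.

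**Figure D4:**
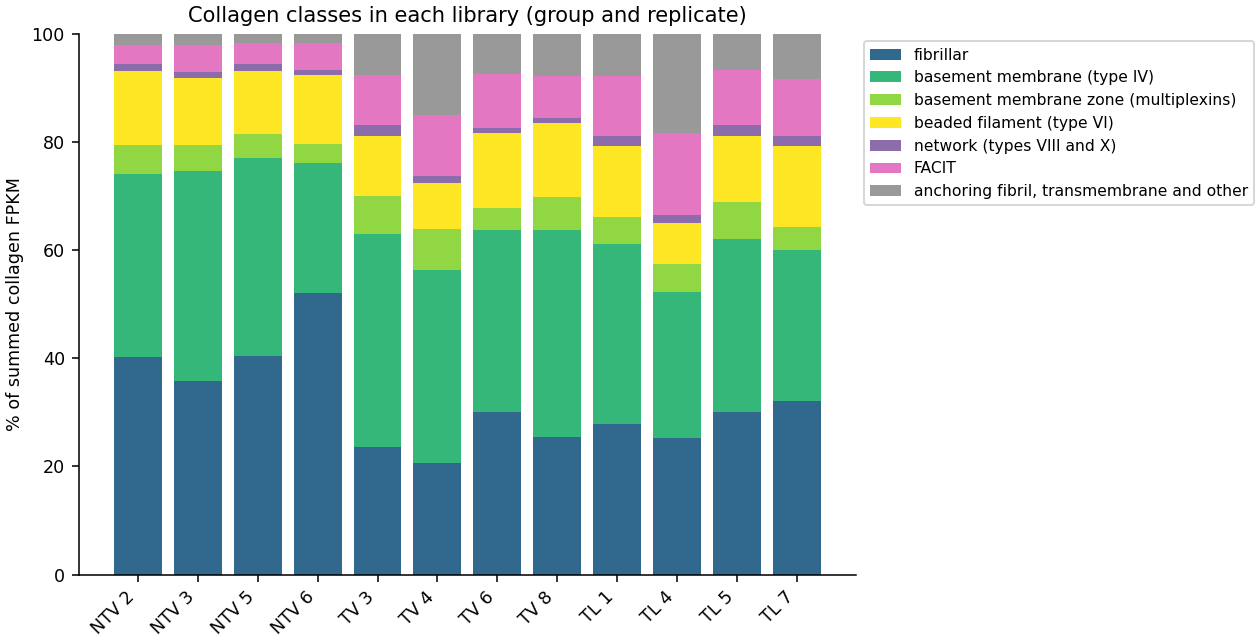
Share of each collagen class in the summed FPKM of all 44 chains (vertical axis, percent) in each library, named by group and replicate. Fibrillar chains hold 35.7% to 52.0% of the NTV bars and 20.6% to 32% of the TV and TL bars, and the last class is widest in TV replicate 4 and TL replicate 4, at 15% and 18.3%.

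Ratios between chains that assemble into 1 molecule were compared within each library. Col1a1 over Col1a2 in FPKM was 1.53, 1.72, 1.54 and 1.28 in NTV, 1.13, 0.791, 1.37 and 1.30 in TV, and 1.07, 0.941, 1.13 and 0.817 in TL. Col4a1 over Col4a2 was 1.26, 1.22, 1.25 and 1.27 in NTV, 1.11, 0.800, 0.808 and 1.04 in TV, and 1.06, 0.914, 1.12 and 0.824 in TL. The NTV ratios of the type IV pair lay within a narrow band above all 8 tumour-bearing libraries, and those of the type I pair above all 4 TL libraries but not above all TV ones. Col5a1 over Col5a2 averaged 1.14, 1.12 and 1.20, and Col6a1 over Col6a2 2.06, 2.64 and 2.33. Col6a2 over Col6a3 was 1.80 to 2.22 in NTV, 1.57 to 1.87 in TV and 1.30 to 1.69 in TL, so that TL lay below NTV and TV overlapped both. The ratio across classes of Col4a1 to Col1a1 averaged 1.51 ± 0.53 in NTV, 5.70 ± 2.45 in TV and 4.11 ± 1.44 in TL.

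**Figure D5:**
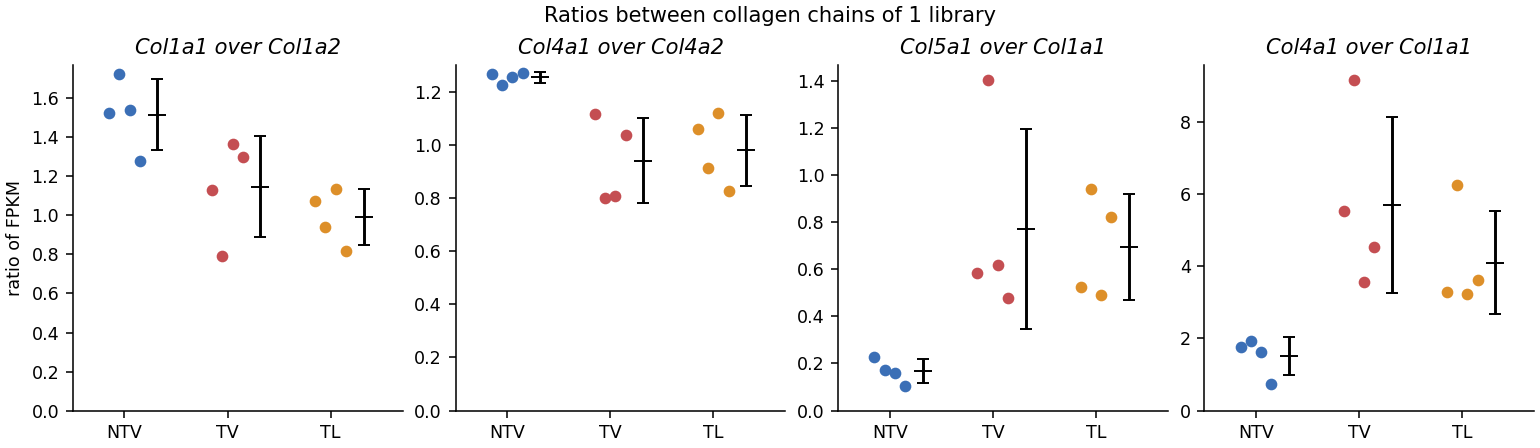
Ratio of FPKM between 2 chains of the same library (linear axes from 0), with 1 point per library and the mean with its SD for each group (n = 4). Col4a1 over Col4a2 is 1.22 to 1.27 in NTV and at most 1.12 elsewhere, and Col5a1 and Col4a1 stand higher relative to Col1a1 in TV and TL.

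The other 22 chains stayed under the mean of 0.5 FPKM and rest on few reads. When the filter was dropped, so that 27865 genes were tested, 6 of these 22 were called lower in TV than in NTV, against 1.63% of the 15111 genes that the filter had kept out and 4.39% of all genes in that fit. Col4a5, a type IV chain of specialised basement membranes, went from 0.497 to 0.726 FPKM in NTV to 0.160 to 0.354 in TV (303 and 125 reads summed over the libraries, adjusted p = 0.0122). Col12a1, a FACIT chain of tendon and muscle, went from 684 to 253 reads (adjusted p = 0.0327), and Col11a1, the partner of Col11a2 in type XI, from 331 to 34 (adjusted p = 0.0106). Col8a2, Col26a1 and Col2a1 were the other 3, with 129 and 27, 74 and 12, and 25 and 2 reads. On the scale of log2(FPKM + 0.5) the changes were small. They were -0.56, -0.62 and -0.66 for Col4a5, Col12a1 and Col11a1, and -0.63, -0.26 and -0.09 for Col8a2, Col26a1 and Col2a1. The TV and NTV values of Col26a1 overlapped. The other 16 ranged from 0 FPKM in some libraries (Col10a1, Col6a5, Col6a4 and Col9a2) to 0.967 FPKM for Col19a1 in a single TL library. The remainder were Col13a1, Col6a6, Col28a1, Col27a1, Col17a1, Col4a3, Col4a4, Col9a1, Col9a3, Col4a6 and Col25a1.

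Many collagen genes lie next to each other, but neighbours did not all share a level. Col3a1 and Col5a2 stand tail to tail on chromosome 1 with 24614 bases between them, and their log2 changes in TV were -2.97 and -1.20. Col6a2 and Col6a1 follow each other on chromosome 10, 85161 bases apart. Col4a4 and Col4a3 lie head to head 71 bases apart, as do Col4a6 and Col4a5 at 1308 bases, and of these 4 only Col4a5 was called in the fit without the filter.

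Promoter windows of the 250 bases before the RefSeq start (GRCm38.p6) were found for 35 of the 44 chains and 18 of the 22 tested ones. They were searched on both strands for 4 short motifs, at any position in the window. A match is therefore not tied to the distance from the start at which such an element works. The comparison set was 27025 promoter windows of that length, the first listed for each gene symbol, and was not limited to tested genes. The CCAAT box (CCAAT or ATTGG) was in 7 of the 18 windows and in 34.5% of all windows in that set. The GC box (GGGCGG or CCGCCC) was in 11 of 18 and in 32.9% of all. The TATA box (TATAAA or TTTATA) was in 2 of 18 and in 13.0% of all, and the E-box CAGGTG or CACCTG in 2 of 18 and in 17.1% of all. Windows are shown for 2 fibrillar chains that fell together but by different amounts, with the matches in capitals, 5′ to 3′ on the gene's strand. Col3a1, at chr1:45311288-45311537 on the plus strand, has a TATA box match, and Col5a1, at chr2:27886175-27886424 on the plus strand, has a GC box match on each strand.
Col3a1: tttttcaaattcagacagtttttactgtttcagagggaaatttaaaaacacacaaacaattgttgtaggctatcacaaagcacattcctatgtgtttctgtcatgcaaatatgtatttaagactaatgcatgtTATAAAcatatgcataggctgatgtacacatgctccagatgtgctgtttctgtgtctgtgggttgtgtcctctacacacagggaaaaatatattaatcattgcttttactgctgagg
Col5a1: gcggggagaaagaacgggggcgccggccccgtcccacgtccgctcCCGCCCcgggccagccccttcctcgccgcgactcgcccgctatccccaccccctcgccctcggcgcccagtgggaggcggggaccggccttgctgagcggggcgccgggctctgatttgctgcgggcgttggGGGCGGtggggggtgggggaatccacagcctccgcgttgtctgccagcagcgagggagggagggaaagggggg
A match is a string of letters and not evidence of binding.

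Genes that modify and export collagen changed in part. The counts for these lists and for the cell markers below stand beside the same shares of all tested genes in TV against NTV, 13.8% higher and 11.5% lower. Of 14 tested prolyl and lysyl hydroxylases and their partners, 6 were lower and 1 was higher in TV than in NTV, with a median log2 change of -0.33. The higher one, P4hb, went from 74.9 ± 3.5 FPKM to 127 ± 9.4 (log2 change 0.75 ± 0.17, adjusted p = 0.00945). The summed level of the list was 144 ± 4.6 FPKM in NTV and 180 ± 8.6 in TV, of which P4hb alone held 74.9 and 127. Without P4hb the sum was lower in TV than in NTV. P4ha1, the catalytic subunit that hydroxylates the prolines of collagen, fell from 14.7 ± 1.9 FPKM to 7.04 ± 1.63 (log2 change -1.02 ± 0.17, adjusted p = 0.00256). Of 10 chaperones and export factors, 4 were lower and 2, Mia3 and Mia2, were higher, with a median of -0.02. Serpinh1, the collagen chaperone HSP47, fell from 26.7 ± 4.4 to 11.3 ± 6.4 FPKM (log2 change -1.33 ± 0.38, adjusted p = 0.0243).

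Genes that process and crosslink collagen outside the cell behaved unevenly. Of 4 tested procollagen proteinases and enhancers 2 were lower, Pcolce, the enhancer of C-propeptide removal (-1.13 ± 0.25, adjusted p = 0.00781), and Bmp1, the proteinase it helps (-0.78 ± 0.18, adjusted p = 0.00907). Of 4 lysyl oxidases, the crosslinking enzymes, 2 were lower and 1 higher. Lox rose from 2.75 ± 0.77 FPKM in NTV to 5.39 ± 2.38 in TV (log2 change 0.81 ± 0.25, adjusted p = 0.0364) and stood at 2.46 ± 0.51 in TL, a difference from TV of -0.93 ± 0.25 that was not called (adjusted p = 0.125). Loxl2 fell by 1.16 ± 0.20 on the log2 scale (adjusted p = 0.00251).

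RNAs of proteins that bind fibrils were lower as well. Of 13 fibril-binding matrix genes 9 were lower in TV and 0 higher, with a median of -1.14. Among the lower were Kera (keratocan, -3.92 ± 0.47, adjusted p = 0.000898), Fmod (fibromodulin, -2.46 ± 0.54, adjusted p = 0.00792) and Comp (cartilage oligomeric matrix protein, -1.80 ± 0.42, adjusted p = 0.011). Dcn, decorin, was not called (-0.21 ± 0.21, adjusted p = 0.499). Of 8 tested genes of collagen breakdown and uptake and their inhibitors, 4 were lower and 4 were not called. Among the lower were Ctsk (cathepsin K, -1.52 ± 0.32, adjusted p = 0.00657) and Mmp2 (gelatinase A, -1.11 ± 0.20, adjusted p = 0.00377). Of 6 collagen receptors 2 were lower, Ddr2 (discoidin domain receptor 2, -0.75 ± 0.17, adjusted p = 0.0089) and the integrin subunit gene Itga1. Among 16 TGF-beta ligands, receptors, Smads and other regulators of collagen transcription 3 were higher and 1 lower, with a median of 0.17. These counts are near the shares of all tested genes and are not a result about that list. Tgfbr1, a TGF-beta receptor, rose by 0.80 ± 0.20 (adjusted p = 0.0143), and Creb3l1, a transcription factor that drives collagen genes, changed by -1.25 ± 0.28 (adjusted p = 0.00833). None of the genes in these 8 lists was called between TL and TV.

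Most tenocyte markers were lower together with the chains, and those of fibro-adipogenic progenitors were divided. Their part in the collagen result was not tested. Of the 8 tested tenocyte markers of 9 listed, 7 were lower in TV than in NTV, and their summed level ranged from 67.4 to 130 FPKM in NTV, 17.6 to 42.9 in TV and 18.8 to 48.3 in TL. Tnmd, tenomodulin, averaged 9.74 ± 4.34, 0.711 ± 0.515 and 1.24 ± 1.10 FPKM, whereas Scx, the tendon transcription factor scleraxis, averaged 4.89 ± 1.78, 11.2 ± 3.7 and 9.86 ± 5.08 (log2 change in TV 1.12 ± 0.38, adjusted p = 0.0505). Kera, Fmod and Comp stand in this list and in the fibril-binding list. Of 12 fibro-adipogenic progenitor markers 5 were lower and 7 were not called, and the sums were 310 to 450, 212 to 354 and 149 to 296 FPKM, with overlap between NTV and TV. Pdgfra, their defining receptor, averaged 1.80 ± 0.47 FPKM in NTV and 1.54 ± 0.28 in TV and was not called (-0.16 ± 0.16, adjusted p = 0.47).

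Markers of other cell types were called in part. Of 9 endothelial markers 2 were lower in TV, with sums of 92.9 to 116, 74.1 to 93.3 and 56.4 to 77.3 FPKM in NTV, TV and TL. Of 8 smooth muscle and pericyte markers 1 was higher, with sums of 145 to 242, 140 to 218 and 126 to 161. Of 3 tested satellite cell markers 1 was higher (sums 7.48 to 10.2, 15.8 to 20.4 and 8.28 to 20.4). None of 7 Schwann cell, 6 macrophage, 8 adipocyte or 9 myofibre markers was called. Their sums were 26.1 to 99.3, 34.7 to 68.2 and 27.7 to 71.4 FPKM for Schwann cells, 8.90 to 25.3, 10.8 to 22.1 and 9.89 to 17.5 for macrophages, and 90.01 to 306, 156 to 718 and 99.5 to 958 for adipocytes. The 9 chondrocyte and bone markers were all under the filter, summed to at most 1.09 FPKM in any library, and Matn1 and Ibsp were at 0 in all 12 libraries. The part of these cells in the collagen result was not tested.

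Variation between libraries of a group was shared by many chains. TV replicate 4 was the lowest of its group in 13 of the 22 tested chains and TV replicate 8 the highest in 14. TL replicate 4 was the lowest in 16 and the highest in 4, Col5a3, Col7a1, Col20a1 and Col23a1. In NTV, replicate 3 was the lowest in 15 chains. With both libraries numbered 4 left out, 14 chains were lower in TV than in NTV and 1, Col7a1, was higher, and 12 were lower in TL. NTV replicate 5, TL replicate 1 and TL replicate 5 had Ucp1, the thermogenic gene of brown fat, above 2 FPKM, at 53.4, 58.3 and 3.97. Without these 3 libraries 13 chains were lower in TV and 13 in TL than in NTV.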

How the data were processed

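Poly-A RNA of 12 gastrocnemius libraries was sequenced. Per the submitters' processing notes, reads were aligned with HISAT2 2.05 to mm10, counted per gene with featureCounts 1.5.0-p3 and handled with DESeq2. The deposited table holds FPKM values made by the authors. Multiplying by gene length showed steps of whole reads (100% of values within 0.1 read), and the scale between libraries matched median-of-ratios size factors over all genes. Depth was 14939830 to 23580603 reads. Groups follow the labels, with 4 biological replicates each per the series' design text.

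The test was limma 3.58.1 (R 4.3.3, with mean-variance trend) on log2(FPKM + 0.5), over all 12 libraries and the 12754 genes with a mean of at least 0.5 FPKM. Genes were called at an adjusted p under 0.05. The scripts were tested on simulated data. The rule for members uses names only, but the set was taken up, and the gene lists were chosen, with earlier results of these data known. All tested chains were named, those called with every library, and up to 3 called members per list. Of the lists, Ctage5 and Ccn2 were not found under those symbols (Ctgf, an older symbol of the latter, was listed). Alternatives covered pseudocount, filter, scaling, test settings, voom on the recovered reads and left-out libraries. The sequences are from GENCODE vM21 and RefSeq, and all 44 chains have the coordinates of vM21.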

Additional observations from a re-analysis of the deposited data

Results flagged for a closer look

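Of the 66 sets of 4 libraries examined (22 tested chains in 3 groups), 8 had a library set far apart from the other 3, with a gap that took more of the group's range than Dixon's critical value for 4 values allows. For independent sets of normally distributed values, chance alone gives about 1 in 20. The 66 sets share the same libraries and were examined as FPKM, so the 8 cannot be judged against that rate. NTV replicate 5 was far above its group for Col4a1, at 49.9 FPKM, and for Col4a2, at 39.8 FPKM. NTV replicate 2 stood apart for Col5a3, at 7.35 FPKM. TV replicate 4 was far below its group for Col3a1, at 0.718 FPKM, and TV replicate 3 far above it for Col8a1, at 0.938 FPKM. TL replicate 4 was far below its group for Col6a1, at 1.59 FPKM, and for Col5a1, at 0.750 FPKM, and TL replicate 5 far above it for Col18a1, at 1.04 FPKM.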

How the results depend on the processing

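The 16 chains lower in TV than in NTV became 13 to 16 when any 1 library was left out and 13 to 19 under 14 other settings, where 19 is the count with no filter on low values. In that fit 13 of the 16 were still called, Col22a1, Col18a1 and Col16a1 were not (adjusted p = 0.0691, 0.0896 and 0.0506), and 6 chains under the filter were added. The 14 chains lower in TL than in NTV became 13 to 14 and 12 to 18. Chains called higher in TV than in NTV were 0, and 0 to 1 with 1 library left out. The count was 1 when libraries were weighted, 1 when the third group was kept out of the fit and 1 with both libraries numbered 4 left out, an alternative chosen after seeing the data. In each case it was Col7a1. Between TL and TV no setting called a chain. NTV and TV share the replicate numbers 3 and 6. With the replicate block, which leaves these 4 libraries, 0 chains were called lower, and 0 in the same 4 libraries with no replicate block, an alternative added after seeing the data. The deviations of same-numbered libraries correlated over genes at 0.01 and 0.13, against -0.15 to 0.12 for other pairs. With 2 same-numbered pairs, 1 of them above all others, this does not settle whether the numbers mark pairs. They were not taken as pairs. The number 4, which TV and TL share, was not checked in this way. Single chains lost their call in 58 of 613 combinations of chain and setting for TV against NTV and 19 of 569 for TL against NTV, and gained one in 6 each. No called change changed sign, and 55 uncalled differences between TL and TV did, in 16 chains. Precision is limited by the 4 libraries a group and by reads: the library with the fewest reads of Col1a1 held 81. For Col16a1, also called lower in TV, a TV library held 28 reads.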

Other observations

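Col8a2 and Col27a1, both under the filter and chosen here after their values were seen, were the chains with every TL library above every TV library. Col9a3, also under the filter, went the other way, with 0.0533 to 0.112 FPKM in TV and 0.0149 to 0.0421 in TL, from 23 and 8 reads. How many other genes under the filter had no overlap between TL and TV was not computed. Col8a2 is the partner of Col8a1 in type VIII collagen, and had 0.0374 to 0.110 FPKM in TV and 0.173 to 0.241 in TL, from 27 and 68 reads summed over 4 libraries. Col27a1, a fibrillar chain of cartilage, had 0.0773 to 0.127 FPKM in TV and 0.208 to 0.287 in TL, from 102 and 230 reads. Col8a2, Col27a1 and Col9a3 were not called in the fit without the filter (adjusted p = 0.249, 0.336 and 0.396 by limma over 27865 genes).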
